A study of Danio rerio with 7 samples.

Results

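Kinesins are motor proteins that walk along or take apart microtubules. One set of them builds the spindle, moves chromosomes and completes cytokinesis, and its genes are transcribed around mitosis. Another set carries vesicles, mitochondria and other cargo through the cell at all times, and in pigment cells kinesin transport is known for dispersing melanosomes. A few more work in cilia or, like *kif7*, in Hedgehog signaling.

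The kinesin genes of zebrafish melanoma were taken as every gene whose symbol begins with kif and a digit or with kifc. The rule used names only and no measured value, but members and role classes were chosen with earlier results of these data known. It found 41 of 20402 genes in the table of sorted melanoma cells and 38 of 20141 features in the single-cell table, of which 34 symbols were in both and 44 in either. By known role, the 41 genes were 12 mitotic kinesins, 21 transport kinesins, 4 kinesins of cilia and Hedgehog signaling and 4 others. *cenpe*, a kinesin of the kinetochore, has another kind of name and was kept with the spindle genes. The single-cell feature *kif1bp* matched the rule by name but encodes a kinesin-binding protein and not a motor. It is listed as *kifbp* in the sorted cells, where the rule did not take it.

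Melanomas were made by Transgene Electroporation of Adult Zebrafish (TEAZ), in which plasmids are electroporated into the skin. For the sorted cells, tumors carried a guide against *dgat1a* (sgDGAT1a, labelled DGAT1a knockout, 3 libraries) or a non-targeting guide (sgNT, labelled WT, 3 libraries). *dgat1a* encodes an enzyme of triglyceride synthesis that acts in forming lipid droplets, and the comparison asks what its loss changes in melanoma cells. All fish were adult *casper* (*mitfa*-/-;*mpv17*-/-);*mitfa*:*BRAF* V600E;*p53*-/- animals of both sexes, and all received MinicoopR-tdT, *mitfa:Cas9*, *U6:sgptena*, *U6:sgptenb* and Tol2. Cas9 was thus driven by the *mitfa* promoter in somatic cells, so a tumor can mix edited and unedited cells, and sorting was for tdTomato. The authors report from targeted sequencing that wildtype cells remained beside *dgat1a* knockout cells in these melanomas. No source used here says that the libraries came from separate fish, so p-values measure the spread between these libraries, which may be technical. The single cells came from tumor and adjacent tissue of 6 fish with the same plasmids but neither extra guide, pooled into 1 library, in which the authors named 5 melanoma states and the tumor microenvironment (TME).

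In the sorted cells, *dgat1a* had 216.5, 231 and 240.0 normalized counts in sgDGAT1a libraries, against 799, 747 and 404.5 in sgNT libraries (log2 fold change -1.44, SE 0.32, adjusted p = 0.0265, limma with Benjamini-Hochberg adjustment), which goes with the labels. Deposited values summed to 19805365.9 to 23287404.4 per sgDGAT1a library and 19183895.2 to 21189833.3 per sgNT library, and they were already divided by size factors, so the depth is unknown. Libraries 1 and 2 were close in each group (r = 0.963 in sgDGAT1a and 0.962 in sgNT over log2 values), and library 3 stood apart from both (r = 0.900 to 0.903 in sgDGAT1a and 0.887 to 0.888 in sgNT). Markers of several other cell types were higher in the sgDGAT1a libraries. Summed keratinocyte markers ranged over 101078.6 to 144736.7 in sgDGAT1a and 6642 to 49801.3 in sgNT libraries (6 of 6 tested called higher). Fibroblast markers ranged over 91682.5 to 123711.3 in sgDGAT1a and 19283.1 to 23073.6 in sgNT libraries (5 of 5 called higher), and skeletal muscle markers over 13997.6 to 43253.9 in sgDGAT1a and 447 to 2806 in sgNT libraries (5 of 5). Also called higher were 2 of 5 erythrocyte, 2 of 4 endothelial, 2 of 3 neutrophil, 1 of 4 T cell and 1 of 8 macrophage markers. Over all genes tested 8.70% were called higher. Members of the last 2 lists went both ways, since 2 of 4 T cell and 2 of 8 macrophage markers had a log2 fold change below 0. Their sums were still higher in every sgDGAT1a library, at 720.9 to 2163 against 524.6 to 630.9 for T cell markers. For macrophage markers they were 98055.1 to 114554.0 in sgDGAT1a and 85523.6 to 92269.8 in sgNT libraries. Summed melanophore markers were present in every library and overlapped, at 114705.6 to 514090.8 in sgDGAT1a and 96907.9 to 133556.8 in sgNT libraries, but their members differed. The pigment gene *tyrp1b* was called higher (log2 fold change 2.92, limma adjusted p = 0.0449), while *sox10*, a transcription factor of the melanocyte lineage, was lower in every sgDGAT1a library (-0.88, limma adjusted p = 0.0381), under the fold limit. In such bulk samples, fewer cells of a type and less RNA per cell cannot be told apart, and the part of the admixed markers in the results that follow was not tested.

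Of the 41 kinesin genes, 34 had a mean of at least 10 normalized counts over the 6 libraries and were tested with all other such genes. A gene was called when its adjusted p was below 0.05 and its log2 fold change, on the log2(value + 1) scale, lay beyond 1 in either direction. 6 kinesins were called, all lower in sgDGAT1a tumors. They were the mitotic *kif4*, *kif2c*, *kif20a* and *kifc1* and the transport kinesins *kif1ab* and *kif5ba*. Over all 16969 genes tested 12.0% were called, 3.31% as lower and 8.70% as higher. The count rested on the libraries, since it was 15 without sgNT 3, 8 without sgDGAT1a 3, 2 without sgNT 2, and 1 without sgNT 1, sgDGAT1a 1 or sgDGAT1a 2. *kif1ab* was called in all 6 of these fits. The share called over all genes moved with it, to 24.9% once sgNT 3 was left out and 9.41% once sgDGAT1a 3 was. Leaving out sgNT 2 gave 2.77%, sgNT 1 gave 2.38%, sgDGAT1a 1 gave 1.55% and sgDGAT1a 2 gave 0.64%. With a constant in place of a trended prior variance, 3 kinesins were called (*kif1ab*, *kif20a* and *kif5ba*), beside 8.45% of all genes. With libraries 1 and 2 of each group averaged into 1 sample, limma called 0 kinesins and 0 genes of any kind, while 8 kinesins and 2533 genes had an unadjusted p under 0.05.

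**Figure D1:**
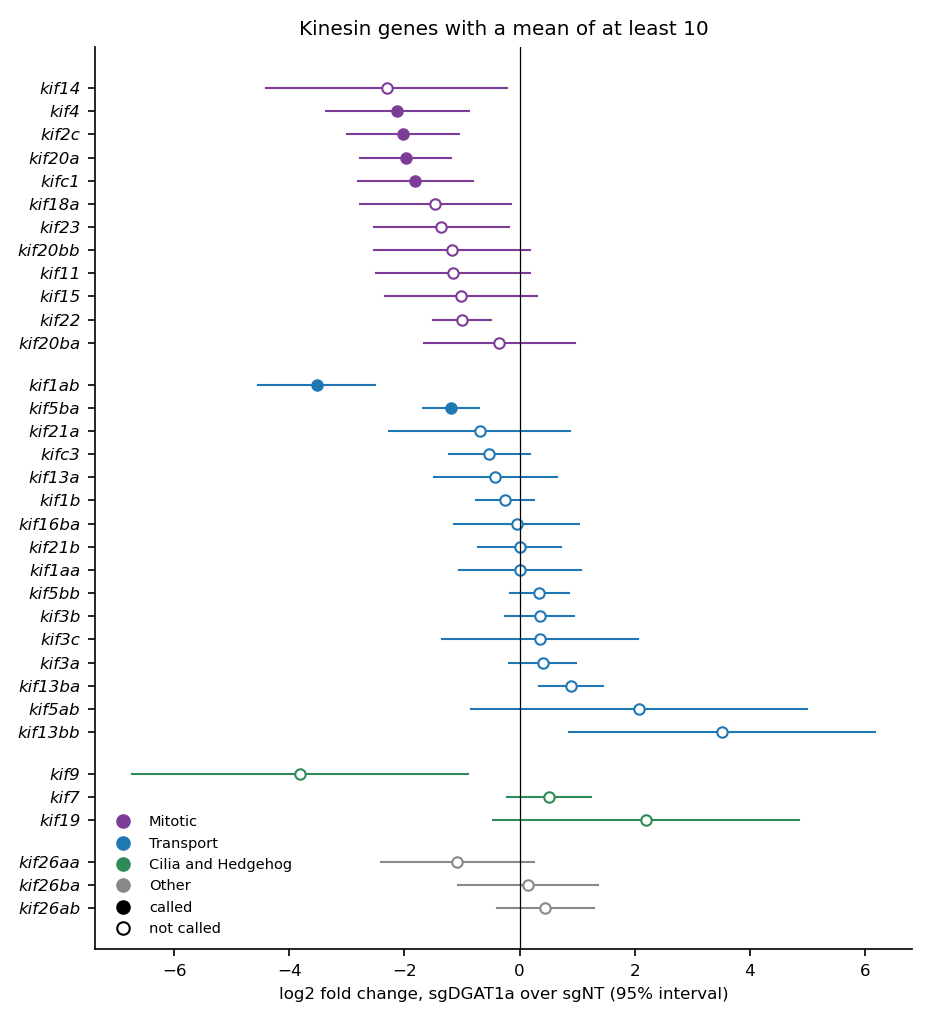
log2 fold change of sgDGAT1a over sgNT for the 34 kinesin genes with a mean of at least 10 (horizontal axis), with 95% intervals from limma, ordered by role and then by value. Filled points are the 6 called genes, and all 12 mitotic kinesins lie below 0 while the 16 transport kinesins lie on both sides.

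The mitotic kinesins shared 1 direction. All 12 were tested, all 12 had a log2 fold change below 0 (49.0% of all genes tested) and 4 were called. Their median log2 fold change was -1.41, against 0.02 over all genes tested, and it stayed between -2.01 and -1.04 with any 1 library left out. In 5 of the 12 the sgDGAT1a libraries all lay under the lowest sgNT library, which was so for 15.9% of all genes tested. Summed over the 12 genes, the libraries held 2662 to 4594 normalized counts in sgDGAT1a and 5197 to 14270.2 in sgNT tumors.

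*kif4*, the chromokinesin that compacts chromosomes and shapes the central spindle, had 199, 175 and 462 normalized counts in sgDGAT1a libraries, against 1719, 1562 and 505 in sgNT libraries (log2 fold change -2.13, SE 0.54, limma adjusted p = 0.0396). The groups did not overlap, but sgDGAT1a 3 and sgNT 3 lay next to each other. *kif2c*, which takes microtubules apart at centromeres, had 334, 238.5 and 529 in sgDGAT1a libraries, against 1827, 1998 and 794 in sgNT libraries (-2.03, SE 0.425, limma adjusted p = 0.0233). Its lowest sgNT library was again sgNT 3, still above every sgDGAT1a library.

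*kif20a*, a motor of the cytokinetic midzone, had 137, 99.2 and 139.9 normalized counts in sgDGAT1a libraries, against 603, 596 and 330.0 in sgNT libraries (log2 fold change -1.98, SE 0.35, limma adjusted p = 0.0147). Its sgDGAT1a libraries lay close together and far below sgNT 3. *kifc1*, a minus-end-directed motor that gathers spindle poles, had 464, 362.5 and 805.0 in sgDGAT1a libraries, against 2675, 2248 and 976 in sgNT libraries (-1.81, SE 0.44, limma adjusted p = 0.0337). As for *kif4*, the third library of each group set the narrow gap between the groups. *kif22*, which pushes chromosome arms outward, had the smallest standard error of the class, with 758, 771 and 831 in sgDGAT1a libraries, against 1901, 1579 and 1286 in sgNT libraries. Its groups did not overlap and its limma adjusted p was 0.0264, but its log2 fold change of -0.996 (SE 0.22) fell just short of the limit. An adjusted p below 0.05 at any fold was reached by 13.2% of all genes, and lower in sgDGAT1a by 4.23%. *kif22* was called after rescaling by the median ratio, which made 7 kinesins, beside 11.9% of all genes.

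In the other 7 mitotic kinesins the groups overlapped, in each case through sgNT 3. *kif11*, the motor that drives spindle poles apart, had 549.6, 334 and 786 normalized counts in sgDGAT1a libraries, against 2105, 1714 and 446 in sgNT libraries (log2 fold change -1.16, SE 0.58, limma adjusted p = 0.212). sgNT 3 lay below 2 of the 3 sgDGAT1a libraries there. *kif14*, a motor of cytokinesis, had 49.8, 9.11 and 84.8 in sgDGAT1a libraries, against 237, 351 and 63.1 in sgNT libraries (-2.31, SE 0.91, limma adjusted p = 0.125). It had the largest fitted change of the 12 and also the widest interval. *kif23*, the motor of the centralspindlin complex, had 369, 191 and 422 in sgDGAT1a libraries, against 1308, 1050 and 367 in sgNT libraries (-1.36, SE 0.51, limma adjusted p = 0.111). *kif18a*, which damps the movements of chromosomes at the plate, had 93.2, 61.4 and 116 in sgDGAT1a libraries, against 408, 347.5 and 99.9 in sgNT libraries (-1.46, SE 0.57, limma adjusted p = 0.122). In both genes sgNT 1 and sgNT 2 lay far above the other 4 libraries.

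*kif15*, which can share the work of *kif11* on the spindle, had 335, 269 and 209 normalized counts in sgDGAT1a libraries, against 926, 869.6 and 194 in sgNT libraries (log2 fold change -1.02, SE 0.58, limma adjusted p = 0.268). For the paralogs *kif20ba* and *kif20bb*, counterparts of the cytokinesis motor KIF20B of mammals, the fold changes were -0.35 (SE 0.57, adjusted p = 0.710) and -1.17 (SE 0.59, adjusted p = 0.212) in the same limma fit. *kif20ba* was the mitotic kinesin nearest to no difference, with 179, 107 and 120.3 in sgDGAT1a libraries, against 274, 258 and 67.9 in sgNT libraries. In *kif15* and *kif20ba* sgNT 3 was below every sgDGAT1a library, which was so for 35.3% of all genes tested.

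**Figure D2:**
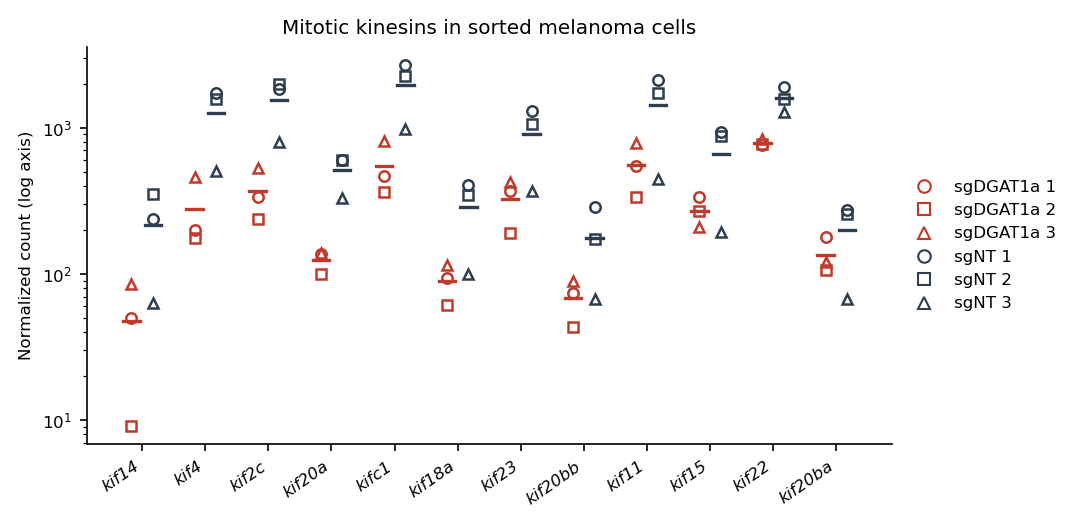
Normalized counts (vertical axis, log scale) of the 12 mitotic kinesins in each library, sgDGAT1a left and sgNT right of each tick, with horizontal bars at the group means. sgNT 3 (dark triangles) is the lowest sgNT library for all 12 genes and reaches the sgDGAT1a values in 7 of them.

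sgNT 3 was thus the lowest of the sgNT libraries for 12 of 12 mitotic kinesins, as it was for 39.9% of all genes tested. The same library had the most keratinocyte marker signal of its group, at 49801.3, against 6642 and 7745 in sgNT 1 and sgNT 2. Other marker lists were highest in it too, among them skeletal muscle (2806, against 447 and 566.8) and melanophore markers (133556.8, against 100052.7 and 96907.9). Macrophage, neutrophil, erythrocyte and neuron markers were not. A link of any of these lists to the mitotic kinesins was not tested. Without sgNT 3, 11 of the 12 mitotic kinesins were called, the exception being *kif20ba*, beside 24.9% of all genes (1371 of 16963 as lower). Without sgNT 1, sgNT 2, sgDGAT1a 1 or sgDGAT1a 2, 0 of the 12 were called, and without sgDGAT1a 3 there were 5.

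The other genes of mitosis had the same direction of change, but their summed counts overlapped between the groups. Of 49 tested genes of the spindle, kinetochore, condensin and cytokinesis that are no members, 49 had a log2 fold change below 0 (49.0% of all genes tested), with a median of -1.22. limma called 10 of them lower (3.31% of all genes) and 0 higher. The called genes included the condensin subunit *ncapd2* (log2 fold change -2.39, limma adjusted p = 0.0108), the midzone organizer *prc1b* (-1.43, adjusted p = 0.0365), the checkpoint kinase *ttk* (-1.34, adjusted p = 0.0160), the proliferation marker *mki67* (-1.57, adjusted p = 0.0212) and *racgap1*, the partner of *kif23* in centralspindlin (-1.36, adjusted p = 0.0477). *cenpe* had 286, 189 and 488 normalized counts in sgDGAT1a libraries, against 879.6, 1148 and 379 in sgNT libraries (-1.28, SE 0.49, limma adjusted p = 0.112), with sgNT 3 between the sgDGAT1a values. sgNT 3 was the lowest sgNT library for all 49 genes. Without it 42 were called lower, without sgDGAT1a 3 there were 6, and without any other single library there were 0 or 1. Over all genes, 1371 were called lower without sgNT 3, 521 without sgDGAT1a 3 and 28 to 82 without any other library, against 561 in the fit of all 6 libraries.

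The fold changes of the transport kinesins had both signs. Of 21 genes 16 were tested, of which 7 had a log2 fold change below 0 and 9 above. The median was 0.01, and it turned negative under quantile normalization (-0.20), with no filter on low values (-0.05), with libraries 1 and 2 averaged (-0.11), and without sgNT 3 (-0.05), sgDGAT1a 1 (-0.01) or sgDGAT1a 2 (-0.24). limma called 2 of the 16 lower and 0 higher, where it called 3.31% of all genes lower and 12.0% in either direction. The 2 calls are too few to set the class apart from all genes. Summed over the 21 genes, the libraries held 7976 to 9021 normalized counts in sgDGAT1a and 11109.5 to 12557.6 in sgNT tumors, which did not overlap, but without *kif5ba* the sums were 5198.4 to 6309.5 in sgDGAT1a and 5440.3 to 5522.5 in sgNT tumors and overlapped. The groups did not overlap in 3 genes with lower sgDGAT1a values (*kif1ab*, *kif5ba* and *kif1b*) and in 3 with higher ones (*kif13ba*, *kif13bb* and *kif3b*), against 15.9% and 21.1% of all genes tested.

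*kif1ab*, a kinesin-3 gene whose mammalian counterpart carries synaptic vesicle precursors along axons, had 47.8, 32.5 and 24.4 normalized counts in sgDGAT1a libraries, against 438, 553 and 260.5 in sgNT libraries. The 3 sgDGAT1a libraries lay far below all sgNT libraries, and the sgDGAT1a mean of 34.9 ± 11.9 (SD, n = 3) was 8.37% of the sgNT mean of 417 ± 147 (SD, n = 3). The log2 fold change was -3.53 (SE 0.44, limma adjusted p = 0.00717), and it lay between -3.83 and -3.29 with any 1 library left out. It was the only kinesin called in every fit that left out 1 library. Its paralog *kif1aa* had 173, 367 and 157 in sgDGAT1a libraries, against 259.5, 293 and 128 in sgNT libraries (0.01, SE 0.46, limma adjusted p = 0.991), so its groups overlapped throughout. Summed neuron markers overlapped too, at 143.9 to 246.2 in sgDGAT1a and 166.5 to 250.4 in sgNT libraries. Their members went both ways, as 4 of 6 tested had a log2 fold change below 0 and 2 above. A link of these markers to *kif1ab* was not tested.

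*kif5ba*, a heavy chain of conventional kinesin, which moves mitochondria, lysosomes and other organelles, had 3398, 2445 and 2778 normalized counts in sgDGAT1a libraries, against 6902, 5669 and 7035 in sgNT libraries. The groups were far apart, sgNT 3 included, and the sgDGAT1a mean of 2873 ± 484 (SD, n = 3) was 44.0% of the sgNT mean of 6535 ± 753 (SD, n = 3). The log2 fold change was -1.19 (SE 0.21, limma adjusted p = 0.0156). Its paralog *kif5bb* had 1449, 1458 and 1438 in sgDGAT1a libraries, against 953, 1078 and 1463 in sgNT libraries (0.34, SE 0.22, limma adjusted p = 0.337), with sgNT 3 above all others. The neuronal heavy chains were low, as *kif5aa* had at most 5.87 in sgDGAT1a and 32.2 in sgNT libraries, and *kif5c* at most 6.02 in sgDGAT1a and 6.52 in sgNT libraries. Paralogs such as *kif5ba* and *kif5bb* share sequence, and reads that fit both were divided between them by estimation, so the split within each pair is uncertain.

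**Figure D3:**
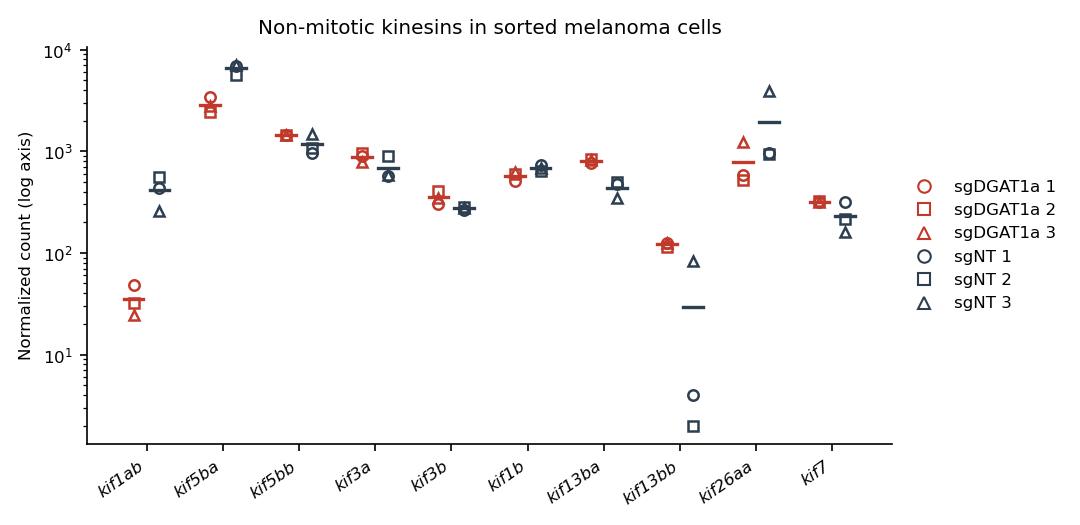
Normalized counts (vertical axis, log scale) of 10 non-mitotic kinesins in each library, sgDGAT1a left and sgNT right of each tick, with horizontal bars at the group means. *kif1ab* and *kif5ba* are lower in every sgDGAT1a library, *kif13ba* and *kif13bb* higher, and sgNT 3 stands apart for *kif13bb* and *kif26aa*.

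The 2 *kif13b* paralogs belong to a kinesin-3 family that carries membrane proteins, and their sgDGAT1a values lay above all their sgNT values. *kif13ba* had 758, 836 and 822 normalized counts in sgDGAT1a libraries, against 473, 499.8 and 343 in sgNT libraries (log2 fold change 0.89, SE 0.24, limma adjusted p = 0.0456), a change under the fold limit. *kif13bb* had 124, 114 and 126 in sgDGAT1a libraries, against 3.98, 1.97 and 82.8 in sgNT libraries (3.51, SE 1.16, limma adjusted p = 0.0792). sgNT 3 was again the library near the sgDGAT1a values. Across the 6 libraries *kif13bb* was high where keratinocyte markers were: their sums were 144736.7, 101078.6 and 126244.9 in sgDGAT1a libraries, against 6642, 7745 and 49801.3 in sgNT 1, 2 and 3. Other marker lists had this pattern too, among them the endothelial one (889.4, 1089 and 881.8 in sgDGAT1a libraries, 282.1, 240.6 and 683.5 in sgNT libraries). The part of any of these cell types in the values of *kif13bb* was not tested. In the single cells, *kif13bb* had 1 corrected count in all melanoma cells and 25 in TME cells. Of the 19 TME cells with *kif13bb* above 0 and at least 2000 raw UMIs, 19 had at least 2 of the 6 measured keratinocyte markers above 0, as did 285 of 946 other TME cells (30.1%).

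Among the other transport kinesins, *kif3a* and *kif3b*, the motor subunits of heterotrimeric kinesin-2, were not called. *kif3a* had 898.5, 952.5 and 792 normalized counts in sgDGAT1a libraries, against 564, 893 and 582 in sgNT libraries (log2 fold change 0.40, SE 0.25, limma adjusted p = 0.314), with sgNT 2 inside the sgDGAT1a range. *kif3b* had 302, 409 and 347 in sgDGAT1a libraries, against 266, 284 and 276 in sgNT libraries (0.35, SE 0.26, limma adjusted p = 0.398). *kifap3b*, which encodes their accessory subunit, was called lower, with 368, 244 and 316 in sgDGAT1a libraries, against 1537, 1325 and 534 in sgNT libraries (-1.75, SE 0.41, limma adjusted p = 0.0314). Its groups did not overlap and sgNT 3 was the lowest sgNT library, while the paralog *kifap3a* overlapped (-0.31, SE 0.28, limma adjusted p = 0.489).

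*kif1b*, which carries mitochondria and synaptic vesicle precursors, had 506, 590.4 and 629 normalized counts in sgDGAT1a libraries, against 731, 637 and 691 in sgNT libraries (log2 fold change -0.26, SE 0.22, limma adjusted p = 0.456), so its groups parted by a narrow gap. *kifc3*, a minus-end-directed motor of cell junctions and the Golgi, had 602, 728 and 406 in sgDGAT1a libraries, against 874, 605 and 1009 in sgNT libraries (-0.53, SE 0.31, limma adjusted p = 0.278). *kif5ab* had values of only 3.56 to 38.9 in sgDGAT1a and 0 to 5.57 in sgNT libraries (2.07, SE 1.27, limma adjusted p = 0.304), and a fold change at such levels depends on the pseudocount. The limma adjusted p of *kif13a*, *kif16ba*, *kif21a*, *kif21b* and *kif3c* ranged from 0.528 to 1.00.

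Of 17 tested kinesin light chains and adaptors, *kifap3b* was called lower and *fez1*, a kinesin adaptor of axons, was called higher (330.2, 288 and 75.4 normalized counts in sgDGAT1a libraries, against 38.2, 36.4 and 46.4 in sgNT libraries, log2 fold change 2.24, SE 0.60, limma adjusted p = 0.0456). Their median was -0.25, against 0.02 over all genes tested, of which 12.0% were called in either direction. Dynein is the motor that runs the opposite way on the same tracks. Of 24 tested dynein and dynactin genes limma called 2 lower and 0 higher, where 3.31% of all genes were called lower. The 2 were *dync1li1* (-1.21, limma adjusted p = 0.0323) and *dync1i2b* (-1.05, limma adjusted p = 0.0253). The median of the 24 genes was -0.245. *kifbp* had a log2 fold change of -0.42 (SE 0.30, limma adjusted p = 0.371).

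None of the 3 tested kinesins of cilia and Hedgehog signaling and none of the 3 tested others was called. *kif9*, a motor of motile cilia, had 2.29, 2.58 and 28.9 normalized counts in sgDGAT1a libraries, against 182.5, 299 and 16.6 in sgNT libraries (log2 fold change -3.81, SE 1.27, limma adjusted p = 0.0816). It was high in sgNT 1 and sgNT 2 only, and sgNT 3 lay between sgDGAT1a 2 and sgDGAT1a 3. In the single cells it was at 0 corrected counts in all melanoma cells and at 24 in TME cells, and of its 15 TME cells with at least 2000 raw UMIs, 15 had at least 2 of the 8 macrophage markers above 0, as did 542 of 950 other TME cells (57.1%). Of the same 15 cells, 3 had at least 2 of the 4 T cell markers above 0, against 9 of the 950 others (0.947%). At least 2 ciliated markers were above 0 in 1 of the 15 and in 0 of the 950. In the sorted cells the macrophage markers went both ways, with 6 of 8 above 0 and 2 below, a median log2 fold change of 0.13 and 1 called (higher). Their sums were higher in every sgDGAT1a library (98055.1 to 114554.0, against 85523.6 to 92269.8 in sgNT libraries). The part of these markers in the values of *kif9* was not tested. *kif7*, the Hedgehog regulator, had 315, 323 and 315 in sgDGAT1a libraries, against 316, 218 and 162 in sgNT libraries (0.51, SE 0.32, limma adjusted p = 0.315). *kif19*, which shortens motile cilia, ranged over 4.67 to 105 in sgDGAT1a and 3.29 to 9.83 in sgNT libraries (2.20, SE 1.16, limma adjusted p = 0.233), with sgDGAT1a 3 inside the sgNT range.

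*kif26aa*, one of the kinesin-11 genes, whose mammalian counterparts lack motor activity and act in signaling, had 578, 520.2 and 1242 normalized counts in sgDGAT1a libraries, against 967, 934.5 and 3928 in sgNT libraries (log2 fold change -1.08, SE 0.58, limma adjusted p = 0.242). Library 3 was the highest in both groups. *kif26ab* and *kif26ba* overlapped between the groups (0.45, SE 0.37, limma adjusted p = 0.444, and 0.15, SE 0.53, adjusted p = 0.878). Of the 7 kinesins under a mean of 10, *kif26bb* alone did not overlap, at 0, 1.22 and 0 in sgDGAT1a libraries, against 17.1, 10.7 and 7.75 in sgNT libraries. With no filter applied *kif26bb* was called lower, and 9.55% of all genes were called in either direction. The other 6 (*kif16bb*, *kif17*, *kif3cb*, *kif5aa*, *kif5c* and *kif6*) had values from 0 to 6.02 in sgDGAT1a and 0 to 32.2 in sgNT libraries.

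The single cells show the kinesins by tumor state. The deposited values are unique molecular identifiers (UMIs) corrected by the authors to a common depth, and the states came from clusters built on these same genes, so a state against the rest is a description without a test. It rests on 1 library and has no replicate. The states held 333 proliferative, 579 melanocytic, 853 stressed, 333 invasive and 580 inflammatory cells, beside 1290 TME cells, with medians of 15141, 9768, 10341, 7979, 8546 and 5166 raw UMIs. Of 38 kinesin features, 30 reached 50 corrected counts summed across melanoma cells. Each level is the mean of corrected counts per cell, and each log2 ratio compares a gene's share of all corrected counts in a state with its share in the other 4 states.

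In the proliferative state all 12 mitotic kinesins were higher than in the other 4 states, with log2 ratios of 3.6 to 7.51 and a median of 5.97. All 12 exceeded a log2 ratio of 1, as did 8.59% of the 11776 genes with enough counts, whose median was 0.11. That minimum was summed over all melanoma cells, so genes seen mainly in proliferative cells could reach it through that state. Every mitotic kinesin except *kif22* did so, with means of 0.00128 (*kif20ba*) to 0.0111 (*kif15*) per cell of the other states, against 0.0431 for *kif22*. *kif20ba* had 95 corrected counts over all melanoma cells and 0.276 per proliferative cell. For these genes a high proliferative ratio was thus in part fixed by the minimum. The share of all genes was not taken with a minimum outside the proliferative state. *kif11* had 1.47 corrected counts per proliferative cell and 0.00768 per cell of the other states (log2 ratio 7.51). *kif20ba* (7.50), *kifc1* (7.07) and *kif23* (6.86) came next, and *kif22* had the lowest ratio (3.6). *kif22* was also the mitotic kinesin seen most widely outside the state, at 0.0300 to 0.0535 corrected counts per cell in the other states and 0.538 in proliferative cells. In the melanocytic, stressed, invasive and inflammatory states the median ratios of the 12 genes were -3.19, -4.20, -3.37 and -2.77, with 11, 12, 12 and 11 genes below -1, against 17.8%, 9.62%, 11.6% and 16.1% of all genes. In each of these comparisons the other states included the proliferative cells, so the negative ratios restate the proliferative excess. Summed, the 12 genes had 0.0871 to 0.133 corrected counts per cell in these 4 states, 0.165 in TME cells and 5.96 in proliferative cells. The ratios nearest to 0 were those of *kif15* in inflammatory cells (-0.58) and *kif14* in melanocytic cells (-0.70), both under 0.025 corrected counts per cell. Among the melanoma states outside the proliferative one, each gene was highest there.

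**Figure D4:**
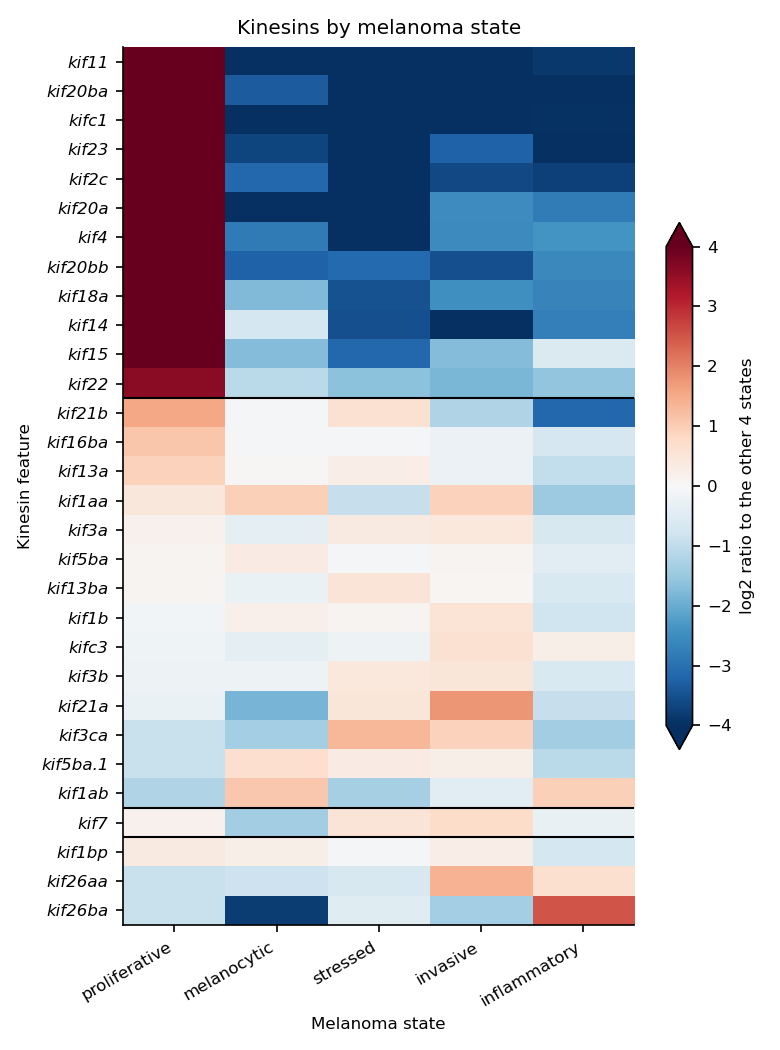
log2 ratio of each kinesin's share of corrected counts in a melanoma state to its share in the other 4 states, for the 30 features with at least 50 corrected counts, with colors cut off at 4 and -4. Black lines part the mitotic, transport, Hedgehog and other kinesins, and the mitotic ones form a solid block in the proliferative column, which the transport kinesins do not share.

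The share of cells with a kinesin above 0 was taken among cells with at least 2000 raw UMIs, and its 95% interval (Clopper-Pearson, exact) covers error of counting alone. At least 1 mitotic kinesin was above 0 in 211 of 324 proliferative cells (65.1%, 59.7 to 70.3). The share was 11.7% (9.01 to 14.9) in melanocytic, 7.44% (5.75 to 9.44) in stressed, 8.39% (5.55 to 12.1) in invasive and 8.56% (6.36 to 11.2) in inflammatory cells, and 7.67% (6.07 to 9.53) in TME cells. The stressed, invasive and inflammatory shares lay within the interval of TME cells, a mixed group that can hold dividing cells, and the melanocytic share lay above it, with overlapping intervals and deeper cells. Median raw UMIs among these cells were 15310.5 in proliferative cells, 8214 to 12269.5 in the other states and 7102 in TME cells. After cells were thinned to 7095 corrected counts, which left out 268 melanoma cells, the proliferative share was 63.2%. It was 8.33% over the other states and 8.56% in TME cells. Corrected counts had already been brought to a common depth, so this thinning cannot remove a difference in raw UMIs.

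Some single proliferative cells carried many of these genes at once, while 113 of the 324 (34.9%) had none above 0. At least 3 of the 12 were above 0 in 139 of the 324 proliferative cells (42.9%, 37.4 to 48.5). The same held for 2 of 486 melanocytic, 2 of 833 stressed, 0 of 310 invasive and 4 of 549 inflammatory cells, and for 15 of 965 TME cells (1.55%). The 0 of 310 invasive cells allow a share of up to 1.18% of cells with such UMIs, which is no limit on cells that express the genes. The most in 1 cell was 12 in the proliferative state, 6 in the other melanoma states and 9 among TME cells. Gene by gene, the share of proliferative cells above 0 ran from 13.9% for *kif18a* to 34.3% for *kifc1* and 36.4% for *kif11*, against 0.518% to 1.55% of TME cells for these 3.

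**Figure D5:**
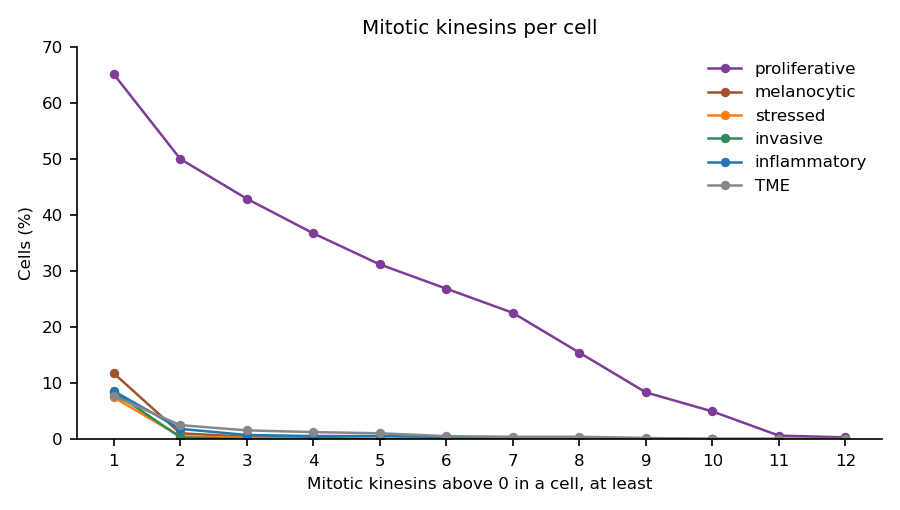
Percent of cells with at least 2000 raw UMIs (vertical axis) in which at least the number of mitotic kinesins on the horizontal axis was above 0, for each melanoma state and the TME. The proliferative curve starts at 65.1% and passes 42.9% at 3 genes, while the other curves start at 7.44% to 11.7% and are near 0 from 2 genes on.

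The proliferative state itself was uneven. Its cells were parted by *ccnb1*, the mitotic cyclin, which is no kinesin. Of 92 cells with *ccnb1* above 0, 91 had at least 1 mitotic kinesin (98.9%, 94.1 to 99.97), with a median of 7 of the 12. Of 232 cells with *ccnb1* at 0, 120 did (51.7%, 45.1 to 58.3), with a median of 1. *kif11* was above 0 in 81.5% of the cells with *ccnb1* (72.1 to 88.8) and 18.5% of those without (13.7 to 24.1). *kif20a* was above 0 in 54.3% of the cells with *ccnb1* (43.6 to 64.8) and 6.47% of those without (3.66 to 10.4). *kif15* was the least divided, at 22.8% (14.7 to 32.8) with *ccnb1* and 12.9% (8.90 to 17.9) without, and these intervals overlapped. The cells with *ccnb1* were deeper, with a median of 19613.5 raw UMIs against 14045.5, and the part of depth in these shares was not tested.

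The transport kinesins did not follow the proliferative state. Of 19 features 14 had enough counts, and their median log2 ratio was 0.001 in proliferative, -0.05 in melanocytic, 0.30 in stressed, 0.33 in invasive and -0.74 in inflammatory cells. The medians over all genes were 0.11, -0.26, 0.06, 0.04 and -0.30 in the same order. Among cells with at least 2000 raw UMIs, the transport median turned negative in proliferative and positive in melanocytic cells. In the inflammatory state 12 of the 14 had ratios below 0, and 4 were below -1, again beside 16.1% of all genes. Summed transport kinesins came to 1.44 corrected counts per inflammatory cell and 2.04 to 2.38 in the other states. The share of cells with any transport kinesin above 0 was 68.8% (64.8 to 72.7) in inflammatory cells, 77.8% to 84.8% in the other 4 states and 50.4% in TME cells.

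*kif21b*, a kinesin-4 motor that restrains microtubule growth, had the largest proliferative ratio of the transport kinesins, with 0.132 corrected counts per cell and a log2 ratio of 1.55, and its level was lowest in inflammatory cells, at 0.00690 (-3.14). It was above 0 in 11.7% (8.44 to 15.7) of proliferative and 0.546% (0.113 to 1.59) of inflammatory cells, and in 4.25% of TME cells. *kif16ba*, of a family that moves endosomes, also passed a ratio of 1 in proliferative cells, with 0.0691 corrected counts per cell there and 0.0320 outside (log2 ratio 1.09). These were 2 of 14 transport kinesins above 1. Among cells with at least 2000 raw UMIs *kif13a* passed 1 too (1.002, against 0.934 over all cells). On the other side, *kif1ab* was below -1 in proliferative cells (-1.21), and 7.67% of all genes were.

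For the heavy chains of conventional kinesin, the single-cell table holds 2 features under the symbol, *kif5ba* and *kif5ba.1*, and which genes they stand for could not be told apart by name. *kif5ba* was even, at 0.531 corrected counts per proliferative cell and 0.376 to 0.563 per cell in the other states. *kif5ba.1* was at 0.204 in proliferative cells and 0.186 in inflammatory cells, and at 0.396 to 0.485 in the other 3 states. It was above 0 in 17.6% (13.6 to 22.2) of proliferative and 33.7% (29.6 to 38.1) of melanocytic cells. The proliferative cells were the deeper ones in raw UMIs, and the part of depth in these shares was not tested.

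The kinesin-3 gene *kif1ab*, with the largest called fold change in the sorted cells, was sparse in the single cells, with 58 corrected counts over all melanoma cells. It was highest in melanocytic (0.0363 corrected counts per cell, log2 ratio 1.09) and inflammatory cells (0.0345, 0.95) and lowest in proliferative cells (0.00901). It was above 0 in 3.09% (1.74 to 5.04) of melanocytic, 3.46% (2.10 to 5.35) of inflammatory, 0.926% (0.191 to 2.68) of proliferative and 0.104% of TME cells. In melanocytic cells it was the 1 transport kinesin above a ratio of 1, which 5.43% of all genes were. Among cells with at least 2000 raw UMIs this and the order of the states turned, since the ratio of *kif1ab* was 0.96 in melanocytic and 1.1 in inflammatory cells, and *kif1aa* was the one above 1 in melanocytic cells (1.15, against 0.95 over all cells). Its paralog *kif1aa* was at 0.140 in melanocytic, 0.147 in invasive and 0.117 in proliferative cells and at 0.0551 and 0.0362 in stressed and inflammatory cells.

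A few kinesins leaned to the stressed or invasive state. *kif3ca*, a kinesin-2 gene, had 0.0563 corrected counts per stressed cell and 0.0541 per invasive cell, against 0.0138 to 0.0180 in the other 3 states, and its log2 ratio of 1.33 in stressed cells was the 1 transport ratio above 1 there (2.35% of all genes). *kif21a*, a paralog of *kif21b*, was highest in invasive cells (0.0480, log2 ratio 1.78), where 7.63% of all genes exceeded 1, but had 50 corrected counts over all melanoma cells. *kif7* ranged from 0.0328 in melanocytic cells (log2 ratio -1.40) to 0.117 in invasive cells (0.73).

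Outside the mitotic class, the kinesin-11 gene *kif26ba* had the widest range of ratios over the states. It had 0.195 corrected counts per inflammatory cell and 0.0343 per cell of the other states (log2 ratio 2.51, with 6.86% of all genes above 1). It was above 0 in 13.1% (10.4 to 16.2) of inflammatory cells, 0.617% to 3.6% of the other states and 0.622% of TME cells, and was lowest in melanocytic cells (log2 ratio -3.81). *kif26aa* had 0.246 corrected counts per invasive cell (log2 ratio 1.4) and 0.157 per inflammatory cell, against 0.0661 to 0.0832 in the other 3 states, but a similar share of invasive (10.97%, 7.72 to 15.0) and inflammatory cells (12.4%, 9.75 to 15.4) had it above 0. *kif26ab* had 38 corrected counts over the melanoma cells and was above 0 in 3.64% of inflammatory, 2.7% of melanocytic and 2.07% of TME cells. In the remaining states it was above 0 in 0 to 0.36% of cells. Of the 20 TME cells that held *kif26ab* with at least 2000 raw UMIs, 19 had at least 2 keratinocyte markers above 0, as did 285 of 945 other TME cells (30.2%).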

How the data were processed

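The authors trimmed the reads of the sorted cells, estimated counts with Salmon 1.4.0 on GRCz11 and normalized with DESeq2 1.30.1. As deposited, the values are a signal, counts divided by size factors, with 0.225% of values above 0 within 0.001 of a whole number, so whole reads were not recovered. Repeated identifier lines (280) were left out. log2(normalized count + 1) was fitted with limma 3.58.1 (R 4.3.3, trended prior variance), with Benjamini-Hochberg adjustment over the 16969 genes that averaged at least 10.

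For the single cells, the authors used Cell Ranger 6.0.2 and Seurat 4.0.2, kept cells with at least 200 genes and at most 30% mitochondrial UMIs, and sorted doublets out beforehand. The deposited matrix holds SCTransform-corrected counts, treated here as a score, in 3968 cells, and the deposited annotation gives each cell's state, its raw UMI count and its percent of mitochondrial UMIs. No doublet caller was run. Ratios of shares had 0.5 added to each sum, and lists were limited to genes reaching 50 corrected counts in 2678 melanoma cells. Tables and figures used Python 3.11.15, numpy 2.4.6, scipy 1.17.1, pandas 2.3.3 and matplotlib 3.10.9. Both procedures were tested on simulated data.

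Members, role classes and gene lists were chosen with earlier results of these data known. Named were all called and all mitotic kinesins, the 4 highest and the 3 with the largest fold change of each other class in the sorted cells, and the most state-biased in the single cells. *kif13ba*, *kif1b* and *kif3b*, other members given by a value, the TME cell counts and the split by *ccnb1* were chosen after values were seen. Promoter and protein sequences were not analysed here. Alternatives were other pseudocounts, filters, scalings and variance priors, a replicate block, averaging libraries 1 and 2, leaving out each library, and, for the single cells, other minimums, pseudocounts, weights, mitochondrial limits and thinning.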

Additional observations from a re-analysis of the deposited data

How the results depend on the processing

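The count of 6 called kinesins was 3 with a constant prior variance, 1 with the replicate block, 0 with libraries 1 and 2 averaged, and 1 to 15 with each library left out. No pairing by replicate number was seen, as the deviations of same-numbered libraries correlated at -0.0743, -0.0515 and -0.144. Deviations within groups of 3 libraries cannot settle whether the libraries were paired. The block left 1 called kinesin (*kif1ab*) and 482 called genes in place of 2038. The genes called in all numbered 1434 with a constant prior variance. The share of called genes that were higher was 60.6% under quantile normalization and 72.5% as deposited, and that scaling moved the median of all genes to -0.12, against 0.02. The mitotic median stayed negative under every setting run. The transport median was -0.054 with no filter, -0.203 under quantile normalization and -0.105 with libraries 1 and 2 averaged, and ranged from -0.241 to 0.206 with each library left out. *dgat1a* kept its direction but not its call with a constant prior variance (-1.44, limma adjusted p = 0.0507), the replicate block (-1.44, 0.0696) and libraries 1 and 2 averaged (-1.268, 0.287), and ranged from -1.751 to -1.261 with each library left out, where the call was lost without sgNT 1 (limma adjusted p = 0.114), sgNT 2 (0.103), sgDGAT1a 1 (0.0974) or sgDGAT1a 2 (0.101). In the single cells the mitotic median in proliferative cells was 6.789 over the 4 genes with at least 200 corrected counts, and 41.67% of proliferative cells had 2 or more corrected counts of 1 mitotic kinesin. Among cells with at least 2000 raw UMIs, the median of the transport kinesins turned negative in proliferative and positive in melanocytic cells. In the sorted cells the direction of some kinesins that were not called turned. Quantile normalization gave *kif1aa* -0.164, *kif21b* -0.138 and *kif26ba* -0.386. *kif21b* was at -0.0 with a pseudocount of 10 and -0.006 after rescaling by the median ratio. With each library left out the ranges were -0.529 to 0.295 for *kif16ba*, -0.373 to 0.239 for *kif1aa*, -1.236 to 0.078 for *kif21a*, -0.177 to 0.219 for *kif21b* and -0.288 to 0.534 for *kif26ba*. The cause of these changes was not tested. Of the other values under an alternative, 83 summary values and 368 single-gene values kept their direction and their side of the threshold, while 33 single-gene values lost the call and 12 gained it in the same direction.

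The depth of the sorted libraries is unknown, so no counting error can be given for their values. Low kinesins such as *kif5ab* rest on few normalized counts, as does *kif9* outside sgNT 1 and sgNT 2. No source states that libraries 1 and 2 of each group are independent. The single-cell values are corrected counts of 1 pooled library, where transport kinesins were seen in a minority of cells each, and 8 of 38 features were too sparse for a ratio.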

Other observations

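Dynein and dynactin genes, the minus-end-directed machinery of cargo transport, had another order over the melanoma states than the transport kinesins. Of 23 with enough corrected counts, 19 had a log2 ratio above 0 in melanocytic cells, with a median of 0.61, against -0.26 over all genes. Their summed level was 23.5 corrected counts per melanocytic cell, 18.98 per proliferative cell and 12.5 to 15.4 in the other 3 states. The 14 transport kinesins had a median of -0.05 in melanocytic cells, which turned positive among cells with at least 2000 raw UMIs. In inflammatory cells 21 of 23 dynein and dynactin genes (median -0.52) and 13 of 15 kinesin light chains and adaptors (median -0.58) had ratios below 0, where the median of all genes was -0.30. These values come from 1 library and were not tested.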
